A study of Rattus norvegicus with 6 samples.

Results

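The enzymes described here make ceramide, turn it into sphingomyelin and release it again. They are the 10 genes Sptlc1, Sptlc2, Cers2, Cers4, Cers5, Cers6, Degs1, Sgms1, Sgms2 and Smpd1, taken by name from the 32883 genes of the deposited table. All 10 were listed, and all 10 were at 1 CPM (reads of a gene per 1000000 reads assigned to genes) or more in at least 3 libraries, so all were among the 13445 genes tested. Expression was measured by RNA sequencing of heart tissue from 3 diet-induced obesity-prone (OP) rats kept on high-fat food and 3 obesity-resistant (OR) rats kept on standard food, both for 12 months, with 1 library per rat. Both lines were raised from selected breeders on a Sprague Dawley background, while line and diet changed together and their contributions cannot be told apart. The RNA came from myocardial tissue, in which fewer cells of a type and less RNA per cell cannot be told apart.

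Sphingolipids are membrane lipids built on a sphingoid base instead of glycerol. Serine palmitoyltransferase joins serine to palmitoyl-CoA, a ceramide synthase adds a fatty acid whose length depends on which synthase acts, and a desaturase completes ceramide. Sphingomyelin synthases then pass a phosphocholine head group to ceramide, which also yields diacylglycerol, and sphingomyelinases take it off again. Because the pathway starts from a saturated fatty acid, ceramide is much studied in hearts under a fat-rich diet.

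Sgms2, a sphingomyelin synthase found mainly at the plasma membrane, was the 1 gene of the 10 that fell in the OP group, while 0 of 10 rose (limma and voom alike). It stood at 1.23 ± 0.597 CPM in OP hearts and 7.60 ± 1.79 CPM in OR hearts (SD, n = 3 each). Its paralog Sgms1, the synthase of the Golgi, stood at 94.0 ± 12.5 and 92.6 ± 10.02 CPM in OP and OR hearts. Degs1, the desaturase that completes ceramide, was higher in every OP library than in any OR library without passing the adjusted p. The other 8 genes overlapped between the groups, Sgms1 among them. The 1 of 10 genes called at an adjusted p under 0.05 (limma) stands beside 3.37% of all genes tested. With the additional requirement of an absolute log2 fold change over 1 it was again 1 of 10, Sgms2, beside 1.16% of all genes tested. At an unadjusted p under 0.05 there were 2 of the 10 (Sgms2 and Degs1), beside 22.3% of all genes tested, and the same 2 had no overlap between the groups, beside 28.1%. The median log2 fold change of the 10 genes was 0.05, against 0.00 over all genes tested.

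Each log2 fold change sets OP over OR hearts and stands with its standard error (SE), both from limma with a mean-variance trend on log2 values with 4 (0.2 CPM) added, which draws the fold changes of low genes toward 0. P-values were adjusted over all 13445 genes by the Benjamini-Hochberg method. The libraries held 10838184 to 12831577 reads assigned to genes, so 1 read stood for 0.0779 to 0.0923 CPM. OP replicate 2 stood apart from the other libraries: the median absolute log2 difference per gene was 0.22 and 0.23 in its pairs with the other OP libraries, against 0.13 to 0.15 in the other pairs within a group. Without it the log2 fold changes of Sgms1 (−0.0056), Cers2 (0.0019), Cers4 (0.04), Cers5 (0.10), Cers6 (−0.28) and Smpd1 (0.02) stayed uncalled, those of Sgms1 and Cers4 with the sign turned, and the values for the other 4 enzymes stand beside their results. Among cell type markers, cardiomyocyte genes summed to 31614 to 33620 CPM in OP libraries and 31950 to 35042 CPM in OR libraries.

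**Figure D1:**
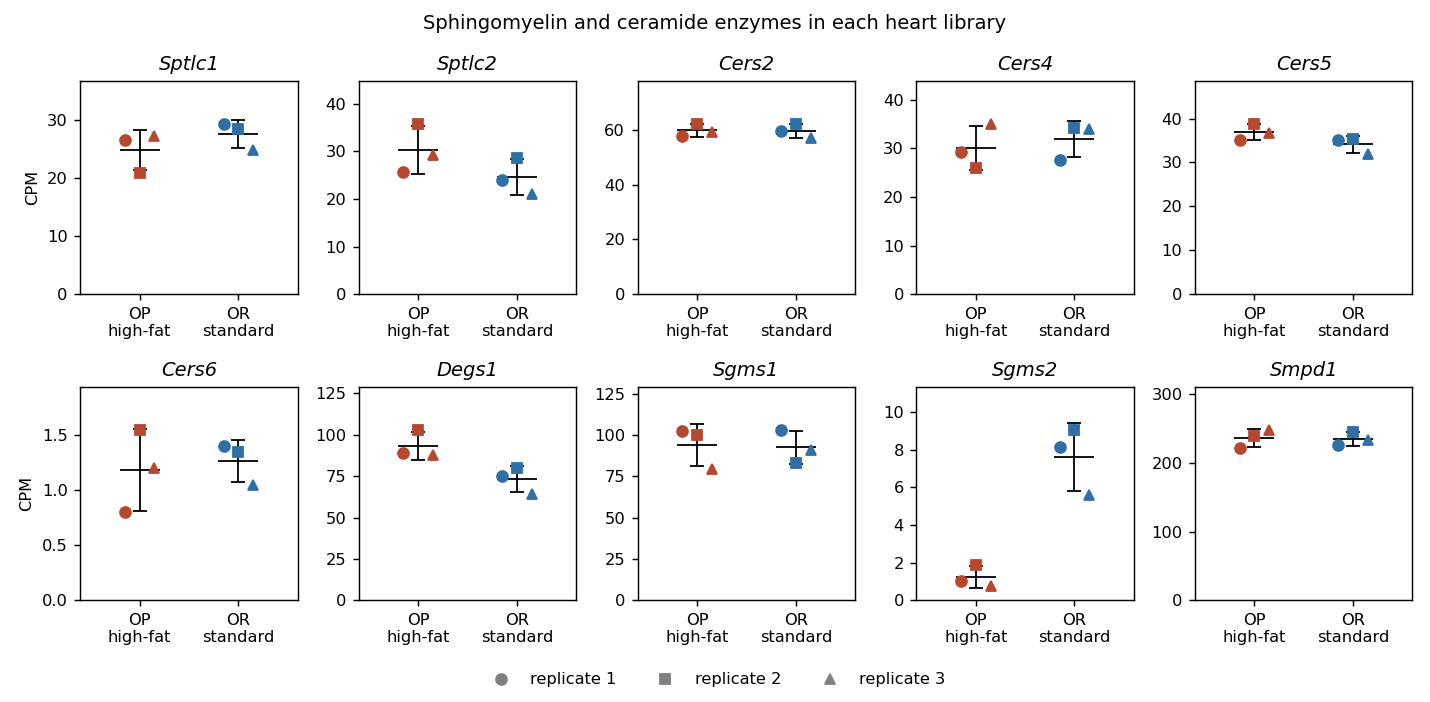
Expression of each of the 10 enzymes in CPM (reads per 1000000 assigned reads, vertical axis, from 0 in each panel) in 3 OP high-fat and 3 OR standard heart libraries. Points are libraries, with the shape giving the replicate, and bars are the mean and SD. The 3 OP values of Sgms2 (0.75 to 1.90 CPM) lie under all 3 OR values (5.60 to 9.05 CPM), the 3 OP values of Degs1 (88.0 to 103 CPM) lie above all 3 OR values (64.4 to 79.9 CPM), and the groups overlap in the other 8 panels.

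The windows upstream of the annotated starts show how unlike the 10 genes are in sequence, and those of Sgms2 and Degs1, the 2 genes whose groups did not overlap, are printed. RefSeq windows on the GRCr8 build were matched for all 10 genes. The 250 bases before each start are given 5′ to 3′ on the strand of the gene, with CG dinucleotides in capitals. On that build Sgms2 (ENSRNOG00000011284 in the files) lies on chromosome 2 and Degs1 (ENSRNOG00000003223) on chromosome 13. For Sgms2 the window is chr2:222590808-222591057 on the minus strand, and for Degs1 chr13:96485303-96485552 on the minus strand. The Sgms2 start lies inside the annotated gene, as do those of Sgms1 and Cers6, and which start was used in these hearts is not known.
Sgms2: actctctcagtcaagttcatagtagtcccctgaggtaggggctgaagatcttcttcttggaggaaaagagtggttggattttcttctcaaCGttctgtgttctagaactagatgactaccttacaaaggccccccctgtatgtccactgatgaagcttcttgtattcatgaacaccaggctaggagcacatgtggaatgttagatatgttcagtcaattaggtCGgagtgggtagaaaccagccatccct
Degs1: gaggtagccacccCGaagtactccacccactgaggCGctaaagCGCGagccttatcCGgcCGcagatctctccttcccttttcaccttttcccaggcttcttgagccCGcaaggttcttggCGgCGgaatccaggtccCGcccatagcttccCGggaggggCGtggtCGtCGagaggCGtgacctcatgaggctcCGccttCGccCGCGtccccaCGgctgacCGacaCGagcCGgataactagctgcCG

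The Sgms2 window held 2 CG dinucleotides and was 45.6% G and C, while that of Degs1 held 24 and was 64.4% G and C. Over the full windows of 300 bases, with 50 bases after the start, the 10 genes had a median of 20 CG dinucleotides (all 33469 windows of the table, 7), and the lowest number of them was the 2 of Sgms2, a number that 22.3% of all windows had or were under. The GC box (GGGCGG, either strand) was found in 7 of the 10 full windows and in 33.1% of all windows. It was absent from those of Sgms1, Sgms2 and Cers6, the genes whose start used here lies inside the annotated gene. The CCAAT box (CCAAT, either strand) was found in 4 of 10 and in 37.5% of all windows, and the TATA box (TATAAA, either strand) in none of the 10 and in 14.2% of all windows. These matches describe letters in a window and not binding, and no expression value in these data is tied to a start site.

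Ceramide synthesis begins with serine palmitoyltransferase, an enzyme of the endoplasmic reticulum in which the Sptlc1 subunit pairs with a catalytic subunit such as Sptlc2. Sptlc1 had 26.6, 20.9 and 27.3 CPM in OP replicates 1, 2 and 3, against 29.5, 28.6 and 24.9 CPM in OR replicates 1, 2 and 3. The lowest of the 6 was OP replicate 2, and the other OP values lay within the range of the OR values. The log2 fold change was −0.11 ± 0.12 (SE, adjusted p = 0.615 from limma), and −0.01 without OP replicate 2. Sptlc2 had 25.8, 35.9 and 29.4 CPM in OP hearts, against 23.9, 28.7 and 21.2 CPM in OR hearts. Of its OP values, those of replicates 2 and 3 lay above all OR values and that of replicate 1 did not. Its log2 fold change was 0.35 ± 0.16 (SE, adjusted p = 0.248), with a 95% interval of −0.02 to 0.71. Without OP replicate 2, the highest library, it was 0.20 (adjusted p = 0.419). The share of Sptlc2 in the summed CPM of both subunits was 49.2%, 63.2% and 51.8% in OP hearts and 44.8%, 50.04% and 45.9% in OR hearts, so that the groups overlapped here as well.

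Ceramide synthases differ in the fatty acids they attach. Cers2 prefers very-long-chain fatty acids, Cers4 long-chain ones, and Cers5 and Cers6 mainly palmitate. Cers2 had 57.9, 62.3 and 59.2 CPM in OP hearts, against 59.6, 62.0 and 56.9 CPM in OR hearts. These 6 values were close to each other, and the log2 fold change estimated at 0.05 ± 0.08 (SE, adjusted p = 0.728 from limma) had a 95% interval of 0.913-fold to 1.18-fold. Cers4 had 29.2, 26.0 and 35.1 CPM in OP hearts, against 27.6, 34.2 and 34.0 CPM in OR hearts. The highest and the lowest value both came from OP hearts, and the log2 fold change was −0.04 ± 0.13 (SE, adjusted p = 0.886). Cers5 had 35.1, 38.9 and 36.8 CPM in OP hearts, against 35.2, 35.3 and 32.0 CPM in OR hearts. Its OP replicates 2 and 3 were above all OR hearts and OP replicate 1 was not, with a log2 fold change estimated at 0.16 ± 0.09 (SE, adjusted p = 0.344).

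Cers6 was near the lower limit of the tested range, with 9, 17 and 15 reads in OP libraries and 15, 16 and 12 reads in OR libraries. Its levels were 0.80, 1.55 and 1.20 CPM in OP hearts, against 1.4, 1.35 and 1.05 CPM in OR hearts. The log2 fold change was −0.07 ± 0.29 (SE, adjusted p = 0.913 from limma), and the 95% interval of 0.60-fold to 1.51-fold was the widest among the 9 genes that were not called. Together the 4 synthases summed to 128 ± 4.71 CPM in OP hearts and 127 ± 5.17 CPM in OR hearts. The makeup of that sum overlapped between the groups for each of the 4, with Cers2 at 46.7 ± 1.84% and 46.9 ± 1.11%, Cers4 at 23.5 ± 3.17% and 25.2 ± 2.61%, Cers5 at 28.9 ± 1.22% and 26.9 ± 1.36%, and Cers6 at 0.92 ± 0.28% and 1.00 ± 0.14% in OP and OR hearts. These shares are of CPM not divided by transcript length, so they can be set between groups but not between genes.

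Degs1 encodes the dihydroceramide desaturase, which introduces the double bond that turns dihydroceramide into ceramide. It had 89.2, 103 and 88.0 CPM in OP hearts, against 75.1, 79.9 and 64.4 CPM in OR hearts. Every OP value lay above every OR value, with OP replicate 3 and OR replicate 2 the nearest pair. The log2 fold change was 0.40 ± 0.11 (SE, unadjusted p = 0.00646, adjusted p = 0.0914 from limma), a 1.32-fold difference with a 95% interval of 1.11-fold to 1.58-fold before adjustment. The difference did not pass in any alternative run, with an adjusted p of 0.0705 to 0.111 in the fits of all libraries and 0.0938 to 0.285 with 1 library left out. Without OP replicate 2, the highest library, the log2 fold change was 0.31.

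**Figure D2:**
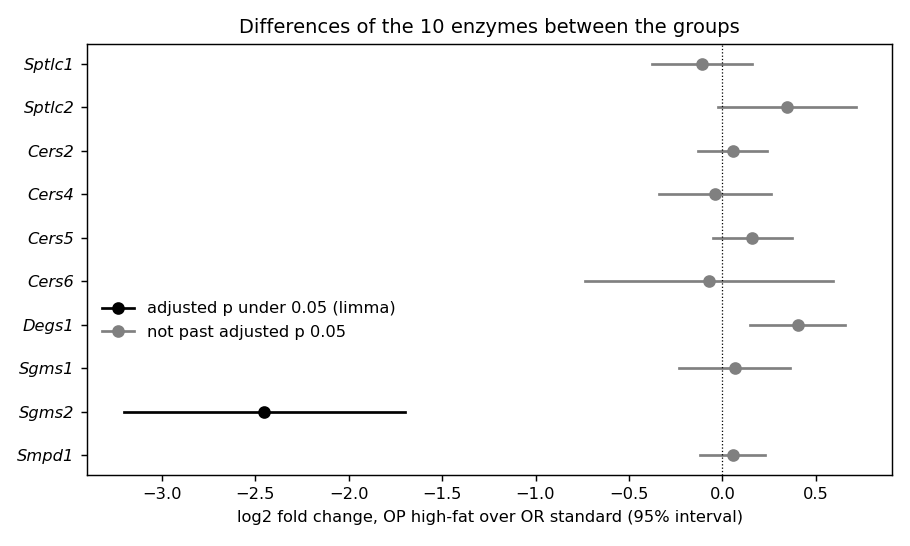
Log2 fold change of OP high-fat over OR standard hearts (horizontal axis) for the 10 enzymes, ordered along the pathway. Points are limma estimates and lines are 95% intervals, black where the adjusted p was under 0.05 and grey elsewhere. Sgms2 lies at −2.45, Degs1 at 0.40 with an interval above 0, and the intervals of the other 8 genes include 0.

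Sphingomyelin is made by Sgms1 in the Golgi and by Sgms2 chiefly at the plasma membrane. Sgms2 had 1.05, 1.90 and 0.75 CPM in OP replicates 1, 2 and 3, against 8.15, 9.05 and 5.60 CPM in OR replicates 1, 2 and 3. Behind these values were 12, 21 and 9 reads in OP libraries and 88, 107 and 64 reads in OR libraries. The highest OP library, replicate 2, was below the lowest OR library, replicate 3, and the gap between them exceeded the range within either group. The log2 fold change was −2.45 ± 0.33 (SE, adjusted p = 0.011 from limma), which is 5.47-fold lower in OP hearts with a 95% interval of 3.25-fold to 9.21-fold. The means of CPM, to which nothing was added, differed 6.16-fold. By p, Sgms2 ranked 75 among the 13445 genes tested.

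The call of Sgms2 depended on the OR libraries. It was lost without OR replicate 1 (adjusted p = 0.0714 from limma) or OR replicate 2 (0.0694) and was kept without OR replicate 3 (0.0414) or any OP library (0.00132 to 0.0411). Its log2 fold change was −2.79 to −2.18 over these 6 fits, −2.79 without OP replicate 2, and −2.39 and −2.31 without OR replicates 1 and 2. Over all genes, the number called fell from 453 to 56, 81 and 72 without OR replicates 1, 2 and 3. A read minimum of 10 in every library removed Sgms2 from the test, since OP replicate 3 held 9 reads.

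Sgms1 had 102.5, 99.8 and 79.6 CPM in OP hearts, against 103, 83.3 and 91.2 CPM in OR hearts. The groups overlapped over most of their range, with a log2 fold change estimated at 0.07 ± 0.13 (SE, adjusted p = 0.801 from limma) and a 95% interval of 0.853-fold to 1.28-fold. Sgms2 made up 1.01%, 1.87% and 0.93% of the summed CPM of Sgms1 and Sgms2 in OP hearts, against 7.32%, 9.80% and 5.79% in OR hearts. The OP share was lower by 6.36 percentage points (exact permutation test, two-sided, p = 0.1, the smallest that 3 rats against 3 allow), and the ratio does not depend on the scaling between libraries. The sum of both synthases was 95.2 ± 12.9 CPM in OP hearts and 100.2 ± 9.94 CPM in OR hearts, with overlapping groups. Neither the share nor the sum is corrected for transcript length.

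**Figure D3:**
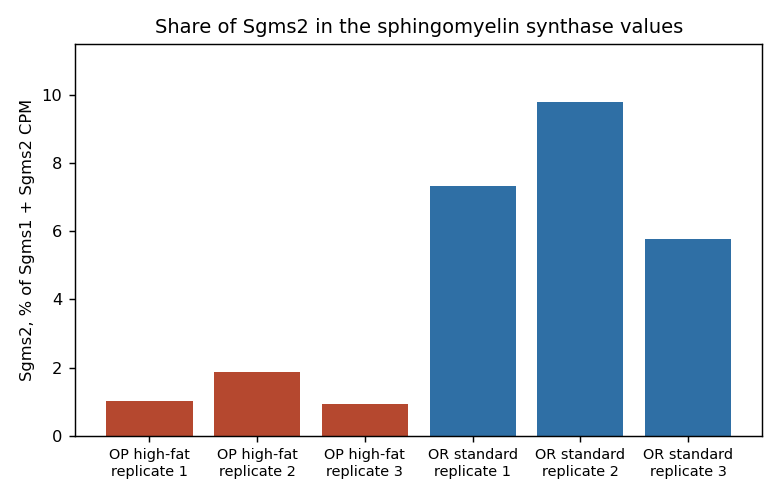
Share of Sgms2 in the summed CPM of Sgms1 and Sgms2 (vertical axis, percent) in each of the 6 heart libraries, 1 bar per library. The 3 OP high-fat bars stand at 0.93% to 1.87% and the 3 OR standard bars at 5.79% to 9.80%.

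Smpd1 encodes acid sphingomyelinase, the lysosomal enzyme that returns sphingomyelin to ceramide. It had 221, 239 and 248 CPM in OP hearts, against 226, 245 and 233 CPM in OR hearts. The values of the groups interleaved, and the log2 fold change estimated at 0.06 ± 0.08 (SE, adjusted p = 0.708 from limma) had a 95% interval of 0.92-fold to 1.17-fold. Summed over all 10 enzymes, expression was 608 ± 20.1 CPM in OP hearts and 587 ± 21.9 CPM in OR hearts, with overlap.

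Cell type markers were set beside these values because myocardial tissue holds several cell types. Of 7 smooth muscle and pericyte markers, Kcnj8 was called higher (all genes tested, 3.37% called in either direction) and 6 had an unadjusted p under 0.05 (all genes, 22.3%), each with the higher mean in OP hearts, and the list summed to 726 to 949 CPM in OP libraries and 619 to 686 CPM in OR libraries. Neutrophil markers summed to 7.8 to 11.3 CPM in OP libraries and 3.4 to 5.2 CPM in OR libraries, and 2 of the 3 tested had an unadjusted p under 0.05 (all genes, 22.3%), both with the higher mean in OP hearts. Summed levels of endothelial (709.5 to 1062 and 746 to 867 CPM), fibroblast (1464 to 2108 and 1535 to 1738 CPM), macrophage (103 to 180 and 116 to 143 CPM), T cell (22 to 37.0 and 26.7 to 27.8 CPM), adipocyte (9.2 to 18.6 and 10.4 to 11.6 CPM) and mesothelial markers (39.4 to 55.6 and 39.1 to 48.8 CPM) overlapped between OP and OR libraries. Of 6 adipocyte markers only Cfd was tested, and it made up most of their sum. Adipoq, Cidec, Lep and Plin1 were too low to test and had higher means in OP hearts. Adipoq had 0.30, 2.30 and 3.05 CPM in OP hearts, against 0, 0.60 and 0.10 CPM in OR hearts. Of 6 mesothelial markers, 5 had a log2 fold change above 0. An unadjusted p under 0.05 (limma) with the higher mean in OP hearts was found for 2 mesothelial and 2 endothelial markers (all genes, 22.3%). Single markers were lower in every OP library than in any OR library. Tcf21 of fibroblasts had 14.95, 13.95 and 15.2 CPM in OP hearts, against 17.8, 20.7 and 17.8 CPM in OR hearts (adjusted p = 0.157 from limma). Cd8a of T cells had 3.20, 3.00 and 2.75 CPM in OP hearts, against 5.10, 4.15 and 4.65 CPM in OR hearts (adjusted p = 0.115 from limma), and Pln of cardiomyocytes did not overlap either (adjusted p = 0.533). These 3 were chosen for mention after their values were seen. Of all genes tested, 28.1% had no overlap between the groups, 2379 with the OP values below and 1398 with them above. Overlap was judged on CPM not rescaled between libraries. In their lists, 4 of 5 tested T cell markers and 5 of 7 cardiomyocyte markers had a log2 fold change above 0. Of 6 tested fibroblast markers, 5 had one below 0. None of the listed markers was at 0 in all 6 libraries. Pecam1 of endothelium and Col1a2 of fibroblasts were not listed, so the endothelial and fibroblast sums each cover 6 of 7 markers. The part of these cell types in the Sgms2 and Degs1 values was not tested.

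Patterns over the 6 libraries were compared with that of Sgms2 by the root mean square difference of log2 values centred on each gene's mean. Tested genes without a symbol, or with a clone or locus identifier as symbol (such as LOC or RGD), were left out. The genes most like Sgms2 among the rest were Misp, Adh7, Adamts13, Polq and Cxcl13 (0.32, 0.44, 0.46, 0.49 and 0.51 in that order). Being chosen for their likeness, they are described without a test. All 5 were low, with at most 19 reads in any OP library. Misp, which encodes an actin-bundling protein that positions the mitotic spindle, had 0.20, 0.40 and 0.25 CPM in OP hearts, against 2.35, 1.90 and 1.75 CPM in OR hearts. Cxcl13, a chemokine that attracts B cells, had 0.55, 1.75 and 1.45 CPM in OP hearts, against 7.20, 6.25 and 7.20 CPM in OR hearts. Adh7, an alcohol dehydrogenase, was listed at 0 in the 3 OP libraries, against 1.05, 1.10 and 1.15 CPM in OR hearts. Adamts13, the protease that cleaves von Willebrand factor, had 0.30, 0.40 and 0.35 CPM in OP hearts, against 5, 5 and 4.15 CPM in OR hearts, and Polq, a DNA polymerase of end joining, had 0.30, 0.30 and 0.40 CPM in OP hearts, against 2.90, 2.30 and 2.75 CPM in OR hearts. The lowest OP value of Sgms2 was in replicate 3, while those of Misp, Adamts13 and Cxcl13 were in replicate 1 and Polq was equally low in replicates 1 and 2.

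The genes beside Sgms2 in the GRCr8 annotation did not pass the test. On one side lie Cyp2u1, a cytochrome P450, and Hadh, a mitochondrial enzyme of fatty acid oxidation, and on the other Papss1, which makes the donor for sulfation, and Dkk2, a Wnt antagonist. Cyp2u1 stood at 6.07 ± 0.785 CPM in OP hearts and 7.82 ± 1.09 CPM in OR hearts (log2 difference −0.31, SE 0.16, adjusted p = 0.304 from limma). Hadh stood at 451 ± 112 and 352 ± 41.1 CPM in OP and OR hearts (0.38, SE 0.17, adjusted p = 0.242). Papss1 (0.10, SE 0.13, adjusted p = 0.685) and Dkk2 (0.53, SE 0.25, adjusted p = 0.246) had higher means in OP hearts. The values of each of these 4 neighbours overlapped between the groups. In the same annotation Sgms2, Sptlc2, Cers6 and Degs1 overlap non-coding genes, Cers2 overlaps Setdb1 and Cers4 overlaps Vom2r60, while no source used here gives the strand setting of the counting. Reads from a gene and from one that overlaps it on the other strand may therefore be mixed. Vom2r60 was listed at 0 in all 6 libraries.

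Beyond the 10 enzymes, 55 other names of the sphingolipid pathway were looked up, of which 53 were listed and 44 tested. None of the 44 was called by limma or with voom on recovered reads, and at an unadjusted p under 0.05 there were 8 with the higher and 5 with the lower mean in OP hearts, beside 22.3% of all genes tested. Their median log2 fold change was −0.01, and 16 of them (8 higher, 8 lower) had no overlap between the groups, beside 28.1% of all genes tested (1398 higher, 2379 lower). Without OP replicate 2 there were 2 calls (S1pr3 higher, Smpdl3a lower) and without OP replicate 3 there was 1 (S1pr3).

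S1pr3, a receptor for sphingosine 1-phosphate, had 74.4, 109 and 59.0 CPM in OP hearts, against 41.0, 50.8 and 33.6 CPM in OR hearts. Every OP value was above every OR value, with a log2 fold change estimated at 0.97 ± 0.24 (SE, adjusted p = 0.0684 from limma), which was 0.71 without OP replicate 2 (adjusted p = 0.0459) and 1.19 without OP replicate 3 (0.0429). With any of the other 4 libraries left out the adjusted p of S1pr3 was 0.121 to 0.24. S1pr1, the receptor abundant in endothelium, stood at 122, 108 and 141 CPM in OP hearts, against 158, 147 and 141 CPM in OR hearts (−0.22, SE 0.09, adjusted p = 0.213). Smpdl3a, a relative of acid sphingomyelinase, had 44.3, 29.9 and 41.4 CPM in OP hearts, against 55.5, 55.6 and 60.9 CPM in OR hearts. All OP values lay under all OR values, and the log2 fold change was −0.54 ± 0.13 (SE, adjusted p = 0.0691), or −0.39 without OP replicate 2 (0.0402), and the adjusted p was 0.0735 to 0.249 with any of the other 5 libraries left out. Smpd2, a neutral sphingomyelinase, was at 0.30 (SE 0.13, adjusted p = 0.219).

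Around the first steps, Ormdl3, which restrains serine palmitoyltransferase, had 79.1, 78.8 and 77.8 CPM in OP hearts, against 74.0, 70.4 and 63.8 CPM in OR hearts (log2 difference 0.23, SE 0.08, adjusted p = 0.148 from limma). Cert1, the protein that carries ceramide from the endoplasmic reticulum to the Golgi, had 48.4, 42.9 and 47.0 CPM in OP hearts, against 55.1, 59.4 and 54.0 CPM in OR hearts (−0.24, SE 0.08, adjusted p = 0.135), and was chosen for mention after its values were seen. The 3 OP values lay above the OR values in Ormdl3 and under them in Cert1. Among genes that break ceramide and glycosphingolipids down, Asah2, a neutral ceramidase, stood at 22.6 ± 0.541 CPM in OP hearts and 28.9 ± 1.06 CPM in OR hearts (−0.31, SE 0.09, adjusted p = 0.101), and Psap, the precursor of the saposins that help lysosomal enzymes reach their lipids, at 1362 ± 37.3 and 1198 ± 36.8 CPM in OP and OR hearts (0.23, SE 0.07, adjusted p = 0.116). Gm2a, an activator of ganglioside breakdown, had a log2 fold change estimated at 0.33 ± 0.10 (SE, adjusted p = 0.11) and Gba2, a non-lysosomal glucosylceramidase, −0.28 (SE 0.09, adjusted p = 0.133). In each of these 4 genes the groups did not overlap, and none passed in limma.

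**Figure D4:**
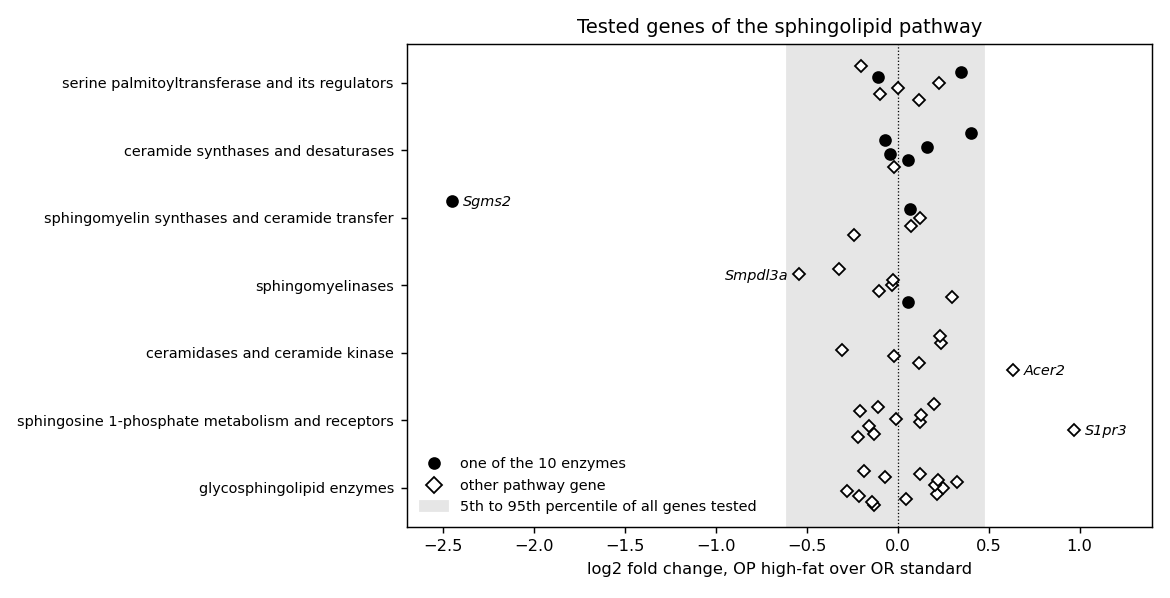
Log2 fold change of OP high-fat over OR standard hearts (horizontal axis) for the tested genes of the sphingolipid pathway, 1 row per group of genes. Filled circles are the 10 enzymes, open diamonds other pathway genes, and the grey band spans the 5th to 95th percentile of all genes tested (−0.61 to 0.48). Sgms2 at −2.45 lies outside the band on the lower side, S1pr3 at 0.97 and Acer2 at 0.63 lie outside it on the upper side, and genes past 0.5 in either direction are labelled.

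Sptlc3, Cers3, Acer1 and Enpp7 were listed at 0 in all 6 libraries. Cers1, the ceramide synthase most studied in skeletal muscle and brain, stood at 6.83 ± 0.562 CPM in OP hearts and 7.15 ± 0.346 CPM in OR hearts, with overlapping groups (−0.02 on the log2 scale, SE 0.13, adjusted p = 0.95 from limma). Acer2, an alkaline ceramidase of the Golgi, had 51.3, 84.5 and 44.3 CPM in OP hearts, against 39.5, 41.1 and 34.9 CPM in OR hearts (0.63, SE 0.23, adjusted p = 0.16), with OP replicate 2 far above the rest. Cers1, Acer2 and the genes at 0 were chosen for mention after their values were seen.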

How the data were processed

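The authors prepared TruSeq RNA libraries from heart tissue, trimmed reads with Trimmomatic, aligned them with STAR to Rnor_6.0 and obtained reads per gene with HTSeq. The deposited value is a score: reads per gene scaled by the authors to a total of 20000000 per library and rounded up, as the values show, so 20 units are 1 CPM and the values are not raw counts. Reads per library were recovered from the steps between values (Python 3.11.15, NumPy 2.4.6, pandas 2.3.3), and 99.7% to 99.9% of values above 0 matched a whole number of reads exactly. Depth was 10838184 to 12831577 reads, and a floor of 3 reads is 0.234 to 0.277 CPM.

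TMM normalization used trims of 30% and 5%. After adding 4 to each scaled value, log2 values were fitted by group in limma 3.58.1 (R 4.3.3) with a mean-variance trend. A gene was tested if 3 or more of the 6 libraries reached 1 CPM, with Benjamini-Hochberg adjustment over all of them. The share of Sgms2 in the sum of Sgms1 and Sgms2 was compared by exact permutation tests in SciPy 1.17.1, and the other shares were not tested. Where a symbol stood on more than 1 line (192 symbols), the line with the most reads was used. The fit was tested on simulated data.

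The 10 enzymes, the pathway and marker lists and the tests were chosen with earlier results of these data known. The result of 1 marker list is not reported here. Named genes are the 10 enzymes, the 2 genes of each pathway list with the smallest p where none was called, the 5 genes most like Sgms2 and its 2 neighbours on each side. Genes of neighbouring positions and upstream windows came from RefSeq on GRCr8, a later build than that of the files. Alternatives were other scalings, pseudocounts and filters, robust variances, voom on recovered reads, a replicate block and each library left out.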

Additional observations from a re-analysis of the deposited data

How the results depend on the processing

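Among the 10 enzymes 1 was called under every alternative fit of all 6 libraries except the minimum of 10 reads in every library, which left 8 of them in the test and gave 0 calls because Sgms2 itself was removed. With 1 library left out the number called was 0 to 1 (0 without OR replicate 1 or OR replicate 2). The log2 fold change of Sgms2 was −2.68 to −1.92 over the other alternatives, with the value nearest 0 at a pseudocount of 20 and the lowest with voom (adjusted p from limma 0.00837 to 0.0124). Among the 44 other pathway genes the number called was 0 under the alternatives of scaling, pseudocount, filter, robust variances and voom, 1 with the replicate block (S1pr3, adjusted p = 0.0157 from limma), and 0 to 2 with 1 library left out. The difference in the Sgms2 share was −7.29 to −5.28 percentage points with 1 library left out. It was −6.36 with recovered reads (exact permutation p = 0.1) and with the replicate block (exact permutation p = 0.25, the smallest 3 pairs allow).

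The replicate numbers were not taken as pairs. Deviations from the group means in libraries with the same number correlated at 0.06, 0.07 and 0.13 over genes. In libraries with different numbers they correlated at −0.17 to 0.08. The block left the number of calls among the 10 enzymes at 1. Over all genes it gave 281 calls, against 453 without it, and leaving out 1 library gave 56 to 775 (775 without OP replicate 2, 56 without OR replicate 1). Genes that were not called changed sign with 1 library left out: Sgms1 ranged from −0.0071 to 0.20, Cers4 from −0.14 to 0.0353 and Cers6 from −0.28 to 0.15 on the log2 scale. Depth limits Sgms2 in OP rats and Cers6 in both groups, which rest on 9 to 21 reads per library, and the voom fit, which weights such values by their depth, gave a log2 fold change of −2.68 for Sgms2.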
